A study of Mus musculus with 7 samples.

Results

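The peptidylarginine deiminase genes Padi1, Padi2, Padi3, Padi4 and Padi6 were examined in whole mouse uterus. They were chosen by symbol, and all 5 were among the 24964 gene symbols of the deposited table. Expression had been measured by RNA sequencing in 7 libraries of uterus from mice aged 12 weeks in diestrus, a stage of the estrous cycle with low estrogen. The 3 control libraries, numbered 1, 2 and 4, had the genotype Pgrcre/+, a single allele that makes Cre recombinase from the progesterone receptor gene. The 4 libraries labelled Foxl2-LSL, numbered 1 to 4, had the genotype Pgrcre/+Foxl2LsL/+, so the Cre allele was shared by both groups. By its title, the study was about raising FOXL2, a transcription factor of the forkhead family. LSL usually names a stop cassette removed by Cre, which the labels leave unsaid. The progesterone receptor gene is active in uterine epithelium, stroma and muscle, and also outside the uterus, for example in the ovary. The labels give neither the strain nor whether a library came from 1 animal, so the p-values measure the spread between these libraries.

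Peptidylarginine deiminases are calcium-dependent enzymes that convert arginine within proteins to citrulline, which removes a positive charge. PAD1 and PAD3 are best known from the epidermis and the hair follicle, PAD4 from neutrophils, where it citrullinates histones, and PAD6 from the oocyte. PAD2 is found in many tissues, and estrogen has long been known to raise deiminase levels in the rodent uterus, chiefly in its epithelium.

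The genes lie side by side on chromosome 4 (GRCm38, coordinates from GENCODE M21). Padi6 occupies chr4:140727355-140742643, Padi4 chr4:140745865-140774236, Padi3 chr4:140785365-140810648 and Padi1 chr4:140812983-140845778, all on the minus strand. Padi2 lies at chr4:140906344-140952586 on the plus strand, so that Padi1 and Padi2 are read away from each other. The cluster spans 225 kb. The 3′ end of Padi1 lies 2334 bases from Padi3, and 60565 bases separate Padi1 from Padi2.

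RefSeq promoter windows (GRCm38.p6, 250 bases before to 50 bases after the start) were found for all 5 genes. Those of Padi1, Padi2 and Padi4 are shown because these genes held nearly all of the family's RNA. Each is written 5′ to 3′ on the gene's strand, and capitals mark the motifs found. The windows are chr4:140845729-140846028 for Padi1, chr4:140906110-140906409 for Padi2 and chr4:140774154-140774453 for Padi4.
Padi1: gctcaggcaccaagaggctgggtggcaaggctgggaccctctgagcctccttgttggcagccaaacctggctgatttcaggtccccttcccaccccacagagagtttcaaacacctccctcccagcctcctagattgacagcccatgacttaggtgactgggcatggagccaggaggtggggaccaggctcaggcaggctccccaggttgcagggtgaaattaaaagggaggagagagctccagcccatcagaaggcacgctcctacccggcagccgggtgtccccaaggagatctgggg
Padi2: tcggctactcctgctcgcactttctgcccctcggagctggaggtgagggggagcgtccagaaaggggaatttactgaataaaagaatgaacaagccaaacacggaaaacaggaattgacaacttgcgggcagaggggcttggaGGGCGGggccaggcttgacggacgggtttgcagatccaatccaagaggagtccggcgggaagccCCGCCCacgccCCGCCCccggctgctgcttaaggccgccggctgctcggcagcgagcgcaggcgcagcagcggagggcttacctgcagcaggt
Padi4: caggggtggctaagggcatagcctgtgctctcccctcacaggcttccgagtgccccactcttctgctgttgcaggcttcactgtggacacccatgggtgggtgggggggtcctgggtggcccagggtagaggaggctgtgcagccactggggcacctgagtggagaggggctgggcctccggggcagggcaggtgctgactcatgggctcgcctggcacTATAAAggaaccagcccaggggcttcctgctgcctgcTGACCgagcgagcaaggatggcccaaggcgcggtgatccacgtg
The search covered the estrogen response element half-site GGTCA, the forkhead core TAAACA, the progesterone and glucocorticoid receptor half-site AGAACA and the GC box GGGCGG on both strands. The TATA box TATAAA was searched on the gene's strand. A full estrogen response element, taken as 2 half-sites facing each other with 3 free bases between, was searched as well. No motif overlapped another in these windows.

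The promoters differed in make-up. The Padi2 window held 3 GC boxes, which begin 107, 43 and 32 bases before the start, and 22 CpG dinucleotides. Over all 32851 RefSeq promoter windows of the same length, 35.7% held a GC box and the median number of CpG dinucleotides was 7. The Padi1 window held 3 CpG dinucleotides and none of the motifs searched. Padi4 had a TATA box that begins 31 bases before the start, a motif held by 8.32% of all windows, and 1 estrogen half-site beginning at base 7 after it, a motif held by 40.5%. Padi3 and Padi6 each had 1 GC box. The forkhead core, the AGAACA half-site and the full estrogen response element were in none of the 5 windows, against 13.4%, 19.0% and 0.0700% of all windows. These matches describe letters only, and the study has no measurement of binding.

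The table gave FPKM, in which fragments are divided by gene length and by library total. The level of one gene beside another therefore rests on the lengths used. The deposited lengths were 3756 bases for Padi1, 4758 for Padi2 and 2640 for Padi4, where GENCODE M21 has 3754, 5013 and 4835 exonic bases. The longest coding transcript of Padi4 has 2316 bases. The denominators recovered from the values were 47800000 to 67200000 fragments per library, of which 74.4% to 77.5% lay on listed genes. Groups were compared with limma on log2(FPKM + 1) over 13336 genes, with Benjamini-Hochberg adjustment over all of them and a threshold of 0.05. Of these, 40.6% passed the threshold, 16.7% higher and 23.9% lower in the libraries labelled Foxl2-LSL, and the median log2 fold change was -0.05. Foxl2 itself averaged 14.4 ± 4.32 FPKM in controls (SD, n = 3) and 14.7 ± 1.86 FPKM in the libraries labelled Foxl2-LSL (SD, n = 4) (log2 fold change 0.06, SE 0.18; limma adjusted p 0.818). The table therefore shows no rise of Foxl2 in them, and every direction below follows the labels as they stand.

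Padi1, Padi2, Padi3 and Padi4 were higher in the libraries labelled Foxl2-LSL, and Padi6 was close to the detection limit in both groups. Of the 5 genes, 4 passed the threshold as higher, where 16.7% of all tested genes did. In the same 4, every library labelled Foxl2-LSL lay above every control, which held for 19.7% of all tested genes. Padi1, Padi2 and Padi4 averaged at least 1 FPKM over the libraries, while Padi3 and Padi6 averaged less and were tested whatever their level. In bulk tissue, fewer cells of a type and less RNA per cell cannot be told apart.

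Padi1, the deiminase known from the upper epidermis, had the largest log2 fold change of the family. It was at 12.6, 15.9 and 5.60 FPKM in controls 1, 2 and 4, and at 136, 80.2, 102 and 142 FPKM in libraries 1 to 4 labelled Foxl2-LSL. The groups were far apart, with control 4 lowest among the controls and library 2 lowest among those labelled Foxl2-LSL. Controls averaged 11.4 ± 5.26 FPKM (SD, n = 3) and libraries labelled Foxl2-LSL averaged 115 ± 29.1 FPKM (SD, n = 4), a 10.1-fold difference. The log2 fold change was 3.30 (SE 0.34; limma adjusted p 0.00056), the eighth largest rise of all tested genes.

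Padi2, the broadly expressed deiminase, followed Padi1 closely. It was at 10.5, 15.3 and 7.14 FPKM in controls 1, 2 and 4, and at 125, 66.6, 83.3 and 116 FPKM in libraries 1 to 4 labelled Foxl2-LSL. Control 4 and library 2 were again the lowest of their groups, and the groups did not overlap. Controls averaged 11.0 ± 4.11 FPKM (SD, n = 3) and libraries labelled Foxl2-LSL averaged 97.7 ± 27.4 FPKM (SD, n = 4), 8.88-fold apart, with a log2 fold change of 3.05 (SE 0.28; limma adjusted p 0.000412). In rank of log2 fold change Padi2 was number 15 of the tested genes.

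Padi4, the deiminase that enters the nucleus, rose less. It was at 27.9, 16.9 and 10.2 FPKM in controls 1, 2 and 4, and at 67.8, 43.5, 55.4 and 69.4 FPKM in libraries 1 to 4 labelled Foxl2-LSL. Here control 1 was the highest control, and it remained below the lowest library labelled Foxl2-LSL. Controls averaged 18.3 ± 8.92 FPKM (SD, n = 3) and libraries labelled Foxl2-LSL averaged 59.0 ± 12.1 FPKM (SD, n = 4), 3.22-fold apart, with a log2 fold change of 1.72 (SE 0.31; limma adjusted p 0.0042). Padi4 ranked 132 among the tested genes. At least 1381 fragments lay on each of Padi1, Padi2 and Padi4 in every library, so counting error was small beside the spread between libraries.

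Padi3, the deiminase of the hair follicle, was scarce but rose as well. It was at 0.031, 0.034 and 0.055 FPKM in controls 1, 2 and 4, which correspond to 6, 7 and 11 fragments. In libraries 1 to 4 labelled Foxl2-LSL it was at 0.935, 0.246, 0.603 and 0.837 FPKM, from 188, 36, 112 and 135 fragments. The lowest of these, library 2, was still well above every control. Controls averaged 0.040 ± 0.0131 FPKM (SD, n = 3) and libraries labelled Foxl2-LSL averaged 0.655 ± 0.306 FPKM (SD, n = 4), 16.4-fold apart. On the log2(FPKM + 1) scale, which compresses such low values, the log2 fold change was 0.65 (SE 0.17; limma adjusted p 0.0199). With a pseudocount of 0.1 it was 2.32 (limma adjusted p 0.0101), and limma-voom on the recovered fragments gave 3.86 (SE 0.61; adjusted p 0.00278). The call was lost without control 2 (0.65, adjusted p 0.0586) or without library 4 labelled Foxl2-LSL (0.59, adjusted p 0.0577; limma).

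Padi6, the deiminase of the oocyte, was at or below 0.099 FPKM in every library. Its fragments numbered 2, 12 and 1 in controls 1, 2 and 4, and 9, 2, 14 and 2 in libraries 1 to 4 labelled Foxl2-LSL. The groups overlapped throughout, and 4 of the 7 libraries held no more than 2 fragments. The log2 fold change was 0.02 (SE 0.12; limma adjusted p 0.904, two-sided exact permutation p 0.629). No difference was detectable at this depth. The exact permutation test of Padi1, Padi2, Padi3 and Padi4 gave a two-sided p of 0.0571 each, the smallest that 3 against 4 libraries allow.

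**Figure D1:**
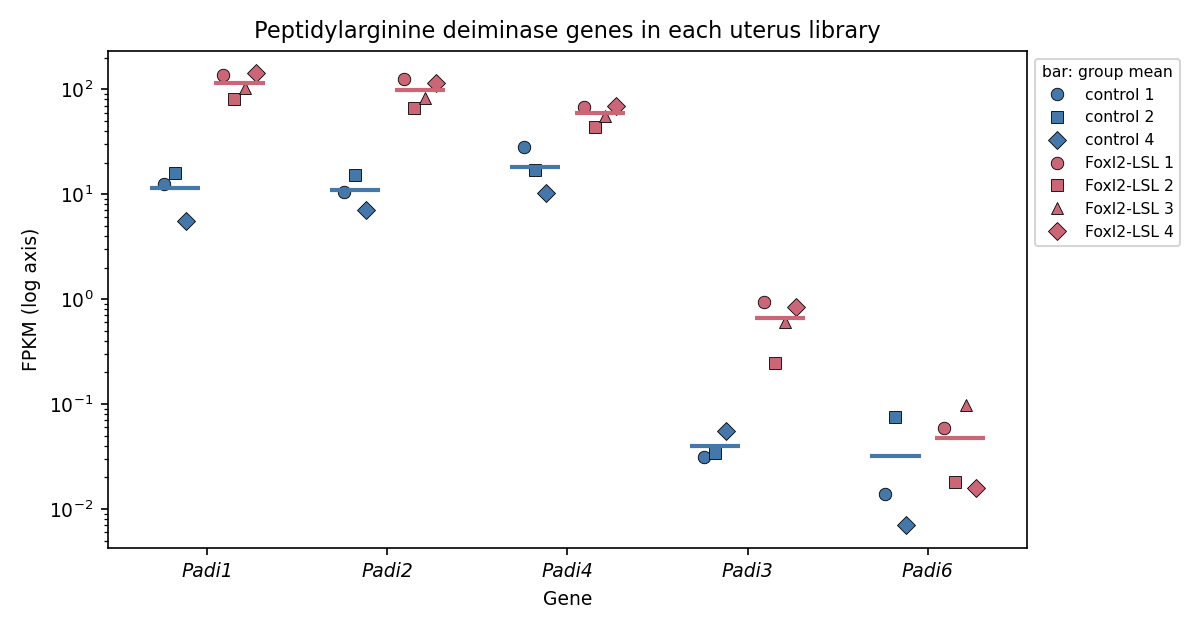
FPKM (log axis) of each Padi gene in each library, with controls in blue, libraries labelled Foxl2-LSL in red, the marker shape giving the library's number and bars at the group means. Padi1, Padi2, Padi4 and Padi3 separate without overlap (for Padi1, 5.60 to 15.9 against 80.2 to 142 FPKM), while Padi6 mixes below 0.1 FPKM.

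The order of levels within the family was not the same in the 2 groups. In controls the mean of Padi4 was the highest, followed by Padi1 and Padi2, but the libraries' ranges of all 3 genes overlapped. That place of Padi4 rests on its deposited length of 2640 bases, against 4835 exonic bases in GENCODE M21. In the libraries labelled Foxl2-LSL the order was Padi1, Padi2, Padi4 in each of the 4. Every Padi1 value there lay above every Padi4 value, whereas the ranges of Padi1 and Padi2, and of Padi2 and Padi4, overlapped. Padi3 lay above Padi6 in all 4 libraries labelled Foxl2-LSL, and in controls their ranges overlapped.

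The summed FPKM of the family was 51.1, 48.2 and 23.0 in controls 1, 2 and 4, and 330, 191, 242 and 328 in libraries 1 to 4 labelled Foxl2-LSL. The lowest sums were again those of control 4 and library 2. Controls averaged 40.8 ± 15.4 FPKM (SD, n = 3) and libraries labelled Foxl2-LSL averaged 273 ± 68.5 FPKM (SD, n = 4), 6.69-fold apart. Padi4 made up 54.6%, 35.0% and 44.4% of the sum in controls 1, 2 and 4, and 20.6%, 22.9%, 22.9% and 21.2% in libraries 1 to 4 labelled Foxl2-LSL. Padi1 made up 27.4% ± 4.90 in controls (SD, n = 3) and 42.2% ± 0.809 in the other group (SD, n = 4), and Padi2 made up 27.8% ± 6.24 and 35.7% ± 1.52. Shares of one sum are tied to each other, so a lower share of Padi4 does not mean less Padi4 RNA. The size of each share also rests on the deposited gene lengths.

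**Figure D2:**
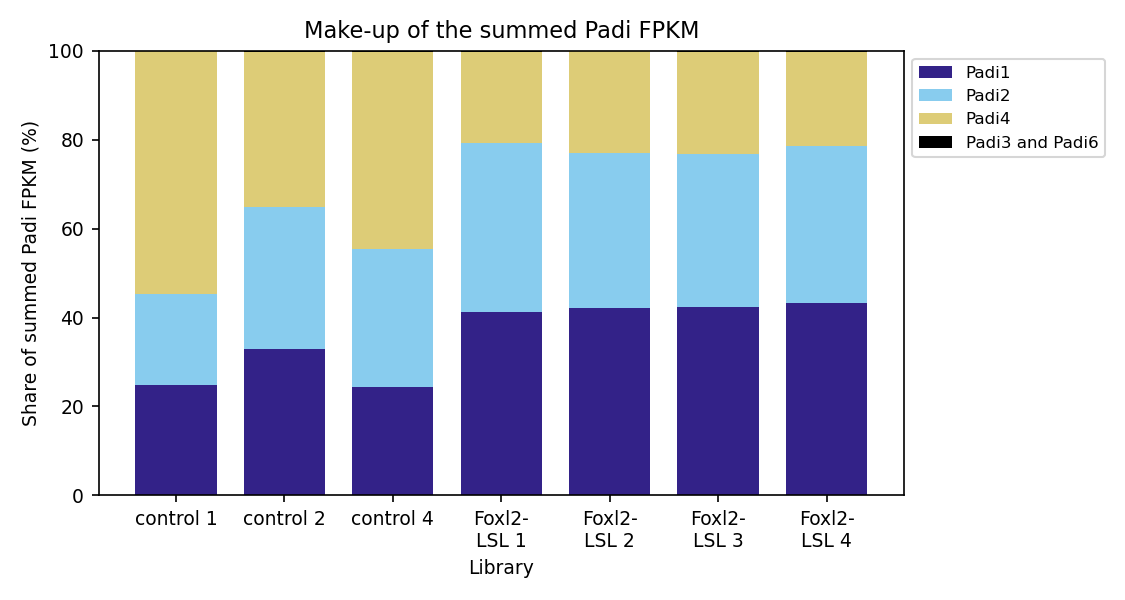
Share (%) of the summed Padi FPKM held by Padi1, Padi2 and Padi4 in each library, as stacked bars. Padi4 holds 35.0% to 54.6% in controls and 20.6% to 22.9% in libraries labelled Foxl2-LSL, and the shares of Padi3 and Padi6 are too small to be seen.

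Ratios of one gene to another within a library were compared next. The ratio of Padi4 to Padi1 was 2.21, 1.06 and 1.82 in controls 1, 2 and 4, and 0.498, 0.543, 0.542 and 0.490 in libraries 1 to 4 labelled Foxl2-LSL. With the deposited lengths, Padi4 thus exceeded Padi1 in each control and was near 50% of it in the other group, where the libraries were close together. On the log2 scale the ratio moved by -1.65 (two-sided exact permutation p 0.0571; 0.0857 after Benjamini-Hochberg adjustment over 3 ratios). The ratio of Padi4 to Padi2 moved by -1.39, with the same p-values in the exact test. Both of these ratios were chosen after the values were seen. The log2 ratio of Padi1 to Padi2 averaged -0.01 ± 0.31 in controls (SD, n = 3) and 0.24 ± 0.08 in libraries labelled Foxl2-LSL (SD, n = 4), a difference of 0.26 (two-sided exact permutation p 0.114). With 3 against 4 libraries this test cannot pass 0.05 for any of the 3 ratios, so these p-values do not set them apart.

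Similar sequences can share reads, so GENCODE transcripts of the 5 genes were compared. Between the longest coding transcripts, aligned bases were identical at 60.2% to 66.8% over the 10 pairs. Stretches of 50 identical bases were shared by 1 pair, Padi1 and Padi3, which had 14 such windows. Because Padi1 was far more abundant than Padi3, some reads from that stretch could belong to either, and the way the authors counted such reads is not given in the sources used here. Padi1 with Padi4, Padi2 with Padi4 and Padi3 with Padi4 shared windows of 30 bases but none of 50.

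The neighbours of the cluster were called about as often as other genes and in both directions. Within 500 kb on either side lay 20 protein-coding genes, and 15 of them were expressed highly enough to test. Among those 15, 4 passed the threshold as higher, 3 as lower and 8 in neither direction, with a median log2 fold change of -0.10. The share called was 46.7%, near the 40.6% of all tested genes. Rcc2, a chromatin-bound regulator of mitosis 4.13 kb from Padi6, averaged 65.1 ± 13.0 FPKM in controls (SD, n = 3) and 27.4 ± 2.72 FPKM in the other group (SD, n = 4), with a log2 fold change of -1.21 (limma adjusted p 0.000901). Sdhb, a subunit of mitochondrial complex II 8.62 kb from Padi2, was at 66.2 ± 3.99 and 61.7 ± 6.58 FPKM, with overlapping groups (log2 fold change -0.10; limma adjusted p 0.435). The nearest tested gene on either side therefore did not share the direction of Padi1, Padi2 and Padi4.

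The neighbours that rose lay on the Padi2 side, which held 13 of the 15 tested. They were Crocc (log2 fold change 0.59), which encodes a protein of the ciliary rootlet, Arhgef19 (0.79), a guanine nucleotide exchange factor, Fam131c (1.39) and Hspb7 (1.02), a small heat shock protein. Mfap2, a microfibril protein, and Szrd1 fell by 0.73 and 0.22 on the log2 scale. Szrd1 lost its call in 8 of the 20 alternatives and Mfap2 in 5. With scaling to epithelial markers, which moved the median of all genes by -0.58, Crocc was at -0.013, Arhgef19 at 0.16 and Hspb7 at 0.44. Crocc, Arhgef19 and Hspb7 did not pass the threshold there. None of the 15 tested neighbours reached the log2 fold change of Padi4.

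**Figure D3:**
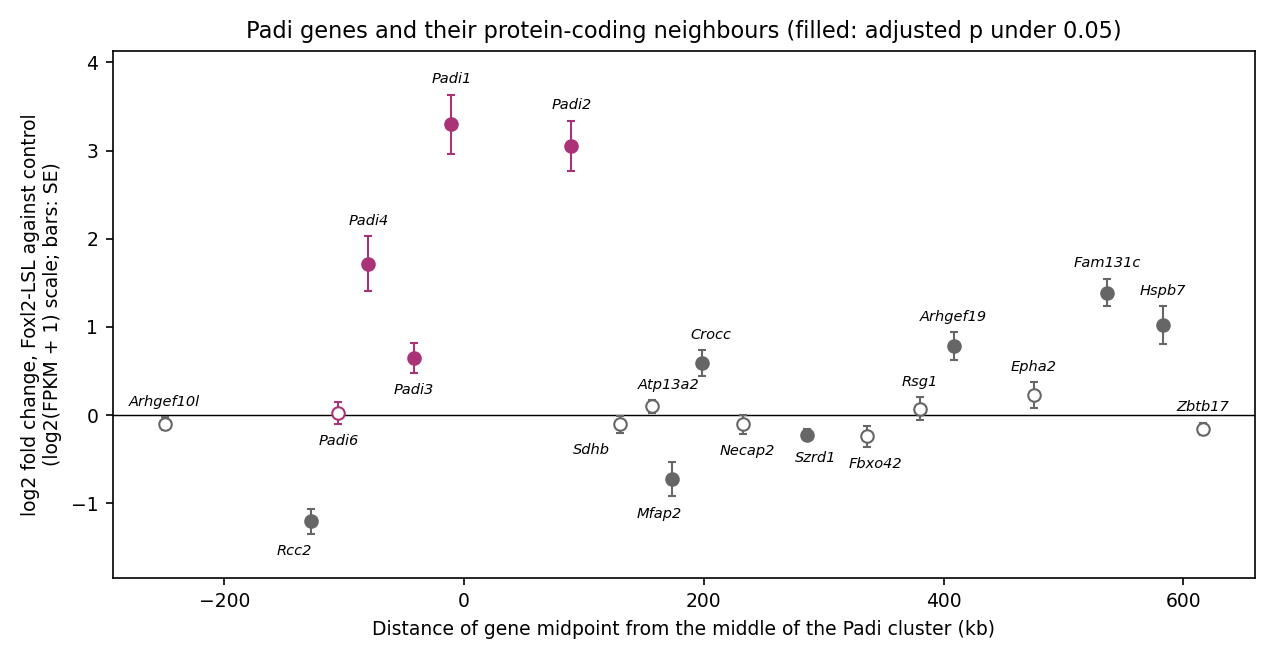
Log2 fold change on the log2(FPKM + 1) scale (bars, SE) of the Padi genes (purple) and tested protein-coding neighbours (grey) against the distance in kb of each gene's midpoint from the middle of the cluster; filled points passed an adjusted p of 0.05. Padi1 and Padi2 stand at 3.30 and 3.05, while the neighbours lie between -1.21 and 1.39.

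Noncoding genes of the cluster were looked at after their values were seen. Gm13032, on the plus strand, overlaps the last part of Padi1 by 4529 bases, of which 1200 are exonic in both. It averaged 0.409 ± 0.192 FPKM in controls (SD, n = 3) and 3.04 ± 0.944 FPKM in the other group (SD, n = 4), a 7.44-fold difference (limma adjusted p 0.00139). Gm13032 reached the mean required for testing only through the other group, so this p-value is no support for a rise apart from Padi1. Gm13031, antisense to Padi2 with 149 bases of shared exon, was at 0.242 ± 0.0436 and 1.38 ± 0.190 FPKM, below the mean required for testing, and its groups did not overlap. Use of strand in the counting is not stated, so reads of the shared bases cannot be assigned to these genes or to Padi1 and Padi2. The deposited lengths were 2001 bases for Gm13032 and 924 for Gm13031.

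Epithelial content was set beside these values, since the uterine deiminases are known from epithelium. The geometric mean of 10 markers of simple epithelium was 133, 84.2 and 59.9 FPKM in controls 1, 2 and 4, and 160, 102, 144 and 153 FPKM in libraries 1 to 4 labelled Foxl2-LSL. These ranges overlapped, and 3 of the 10 markers rose: Elf3 (log2 fold change 1.95), Krt7 (0.95) and Krt18 (0.80), while 0 fell. Of all tested genes, 16.7% rose and 23.9% fell. The calls of Elf3 and Krt7 were lost in 5 and 9 of the 20 alternatives. With scaling to the epithelial markers themselves Krt18 was at 0.15 and not called.

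Per 100 FPKM of that mean, Padi1 was at 9.51, 18.9 and 9.35 in controls 1, 2 and 4, and at 84.9, 78.3, 70.9 and 92.6 in libraries 1 to 4 labelled Foxl2-LSL. The difference was 6.49-fold, against 10.1-fold before scaling. Padi4 became even within each group, at 21, 20.03 and 17.0 in controls and 42.3, 42.5, 38.4 and 45.3 in the other libraries, 2.18-fold apart. Padi2 differed 5.45-fold and Padi3 8.62-fold. In each case the groups did not overlap (two-sided exact permutation p 0.0571). When the whole table was scaled this way, an alternative chosen after seeing the data, the median of all genes moved by -0.58. Padi1, Padi2 and Padi4 still passed, at log2 fold changes of 2.68, 2.43 and 1.09, and Padi3 did not (0.50; limma adjusted p 0.0777).

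Libraries of the same group differed in adipose markers. The summed FPKM of 5 adipose markers was 0.34, 4.04 and 49.2 in controls 1, 2 and 4, and 1.44, 67.9, 129 and 8.91 in libraries 1 to 4 labelled Foxl2-LSL. Control 4 and libraries 2 and 3 labelled Foxl2-LSL, the highest here, were also the lowest of their groups in Padi1, Padi2 and Padi4. Without those 3 libraries, a choice made after seeing the data, the log2 fold changes were 3.21 for Padi1, 3.15 for Padi2, 1.62 for Padi4 and 0.87 for Padi3, and all 4 passed in limma.

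**Figure D4:**
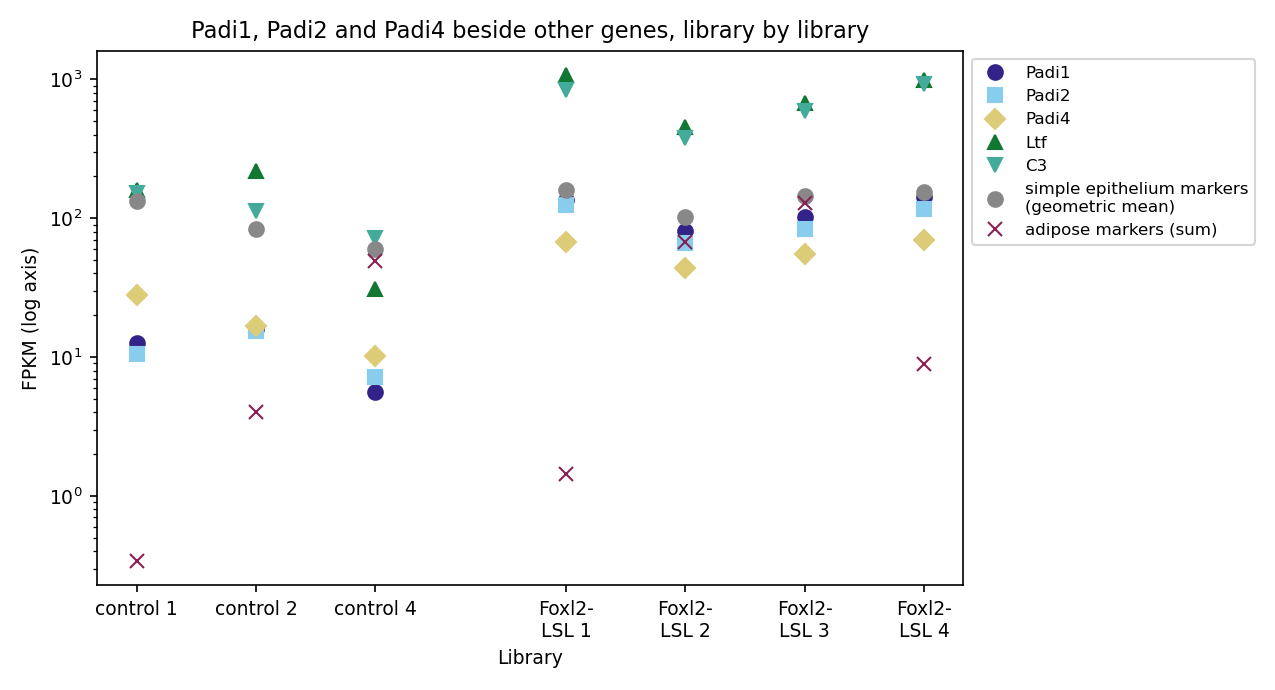
FPKM (log axis) of Padi1, Padi2, Padi4, Ltf and C3 in each library, beside the geometric mean of the simple epithelium markers and the sum of the adipose markers. Library 2 labelled Foxl2-LSL is the lowest of its group in Padi1 (80.2), Ltf (450) and C3 (376), and the adipose sum ranges from 0.34 to 129 over the 7 libraries.

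Markers of the other cell types known for deiminases were mostly near 0. The neutrophil markers S100a8 and S100a9 were below 0.5 FPKM in every library, Ly6g reached 2.38 FPKM, and the sum of 11 neutrophil markers was 3.92 to 5.70 FPKM in controls and 3.50 to 5.64 FPKM in libraries labelled Foxl2-LSL. The oocyte genes Zp1, Zp2 and Zp3 were at or below 0.125 FPKM, and the sum of 11 oocyte markers was 4.36 to 5.49 and 4.24 to 5.33 FPKM. Hair follicle markers summed to 1.46 to 2.93 FPKM in controls and 0.754 to 1.14 FPKM in libraries labelled Foxl2-LSL, with Krt71 and Krt27 listed at 0. Neutrophil and oocyte markers thus overlapped between the groups, and the hair follicle sum was lower in the group in which Padi3 was higher. The part of hair follicle cells in the Padi3 result was not tested.

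Of the stratified epithelium list, whose 12 markers summed to 11.9 to 13.0 FPKM in controls and 15.4 to 16.4 FPKM in the other group, Krt13 rose (log2 fold change 0.68) among 4 tested. Its call was lost in 13 of the 20 alternatives, and 16.7% of all tested genes rose. Trp63, Krt5 and Krt14 were below the mean required for testing. Members of the list differed in direction: mean FPKM in controls and in the other group was 0.286 and 0.257 for Trp63, 0.240 and 0.136 for Krt14, 0.420 and 0.0675 for Ivl and 1.38 and 0.846 for Lor. Krt5 was at 0.034 to 0.058 FPKM in controls and 0.483 to 2.22 FPKM in libraries labelled Foxl2-LSL. Krt1 averaged 0.129 FPKM in controls and 1.33 FPKM in the other group, and Krtdap 0.034 and 0.203 FPKM, in each case without overlap. Krtdap had at most 8 fragments in any library. The part of these cells in the Padi result was not tested.

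The main tissues of the uterus were all present by their markers and differed in part. Of all tested genes, 16.7% rose and 23.9% fell, and no list was tested as a set. The 3 tested gland markers fell: Cxcl15 by 2.45 and Aldh1a1 by 1.47 on the log2 scale, and Foxa2 from a mean of 5.71 to 1.36 FPKM. The sum of 7 gland markers was 66.1 to 95.5 FPKM in controls and 19.3 to 23.6 FPKM in libraries labelled Foxl2-LSL. Of 7 macrophage markers, a cell type in which PAD2 and PAD4 are also known, Mrc1 (log2 fold change 1.37) and Csf1r (0.64) rose, and the sum was 103 to 128 FPKM in controls and 131 to 165 FPKM in the other group. Of 8 stroma markers Dcn rose (1.25) and Hand2 and Vim fell by 2.18 and 0.56, the call of Vim being lost in 10 of the 20 alternatives. Myh11 (1.01) and Tagln (0.77) rose of 6 smooth muscle markers, and 4 of 5 endothelial markers, Cdh5 among them (-1.17), fell. With scaling to epithelial markers the calls of Csf1r (0.038), Dcn (0.60), Myh11 (0.36) and Tagln (0.11) were lost. That scaling moved the median of all genes by -0.58, so these losses cannot be told apart from that shift. The part of these marker differences in the Padi result was not tested.

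Deiminases need calcium, and genes of epithelial calcium transport moved in both directions. Their part in deiminase activity was not tested. Of 8 tested genes of epithelial calcium transport, 3 rose and 2 fell, where 16.7% of all tested genes rose and 23.9% fell. S100g, a calcium-binding protein of the uterine epithelium, was at 70.0, 56.4 and 124 FPKM in controls 1, 2 and 4 and at 322, 203, 263 and 348 FPKM in libraries 1 to 4 labelled Foxl2-LSL, without overlap (log2 fold change 1.81; limma adjusted p 0.00255). The calcium channel gene Trpv6 rose by 1.70 and the calcium pump gene Atp2a3 by 1.45, whereas Calb1, another calcium-binding protein, fell by 1.97 on the log2 scale. The median of the list was 0.24.

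Of 20 genes for known deiminase substrates 10 were tested, and 2 rose and 5 fell (median log2 fold change -0.31), against 16.7% and 23.9% of all tested genes. Mbp, which encodes myelin basic protein, a substrate of PAD2, rose by 0.87 and lost its call in 2 of the 20 alternatives. Fn1, E2f1 and Pkm, for fibronectin, a cell cycle transcription factor and pyruvate kinase, fell by 1.66, 1.65 and 0.79. Of untested members, Krt1 averaged 0.129 FPKM in controls and 1.33 FPKM in the other group, and Tchh 1.02 and 0.493 FPKM, each without overlap. Krt5, also on this list, is given above. Filaggrin-type and fibrinogen substrates were at or near 0: Flg2, Fga and Fgb did not exceed 0.022 FPKM in any library.

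Enzymes that use arginine in other ways were then compared. Of 8 tested protein arginine methyltransferases, 4 fell and 1 rose, against 23.9% and 16.7% of all tested genes: Prmt1 by -0.61, Prmt3 by -0.57, Carm1 by -0.50 and Prmt5 by -0.31, against 0.31 for Prmt2. Prmt2 and Prmt3 each lost the call in 3 of the 20 alternatives. Prmt2 was at -0.30 with scaling to epithelial markers, which moved the median of all genes by -0.58. Of 6 tested enzymes of free arginine and citrulline, Arg1, which splits arginine to urea and ornithine, rose by 3.73, with an uneven spread of 4.41 to 123 FPKM in libraries labelled Foxl2-LSL. Arg1 lost its call without control 2, without library 4 labelled Foxl2-LSL, and in limma-voom. Ddah1 and Nos3, which make free citrulline, fell by 1.08 and 0.99, and Ass1 and Otc were listed at or near 0.

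Other genes known to respond to estrogen in the uterus were followed in the same libraries. The direction of that response was not checked gene by gene, and Wnt7a and Clu are not safely counted as induced. Of 15 tested, 4 rose and 1 fell, where 16.7% of all tested genes rose and 23.9% fell. In either direction 40.6% of all tested genes changed, so with both directions together the list was not called more often than other genes. The median log2 fold change was 0.65, which is the value of Wnt7a itself, against -0.05 for all genes. Ltf, for lactoferrin, was at 159, 217 and 31.0 FPKM in controls 1, 2 and 4, and at 1072, 450, 671 and 984 FPKM in libraries 1 to 4 labelled Foxl2-LSL. As for Padi1, control 4 and library 2 were the lowest of their groups. Ltf had a log2 fold change of 2.86 (SE 0.64; limma adjusted p 0.0105), C3, for complement component 3, 2.58 (SE 0.36; 0.00156) and Lcn2, for lipocalin 2, 2.67 (SE 0.84; 0.0372). Greb1 rose by 0.89, and Vegfa fell, from 64.2 ± 6.91 to 29.0 ± 3.40 FPKM. Lcn2 lost its call in 8 of the 20 alternatives and Ltf in 1, the replicate block (adjusted p 0.0561; limma). Without control 4 the log2 fold change of Ltf was 2.01. The other 10 did not pass: Muc1 was at 0.91, Wnt7a at 0.65, Clu at -0.46 and Igf1 at -0.85 in log2 fold change.

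Of 9 tested steroid receptors and coregulators, 4 rose and 0 fell, where 16.7% of all tested genes rose and 23.9% fell. Esr1, the estrogen receptor, averaged 39.8 ± 6.91 FPKM in controls (SD, n = 3) and 58.2 ± 2.29 FPKM in the other group (SD, n = 4), a log2 fold change of 0.55 (limma adjusted p 0.00661). Pgr, the progesterone receptor, was at 33.5 ± 7.56 and 25.4 ± 1.14 FPKM with overlapping groups (log2 fold change -0.36; limma adjusted p 0.0845). Nr3c2 rose by 0.95, Nr3c1 by 0.53 and the coregulator gene Nrip1 by 0.32 on the log2 scale. Nr3c2 averaged 0.643 FPKM in controls and 2.18 FPKM in the other group, through which alone it reached the mean required for testing. Its call was lost in 1 of the 20 alternatives. With scaling to epithelial markers the log2 fold changes of Esr1, Nr3c1 and Nrip1 were -0.10, -0.060 and -0.28, without passing the threshold. The median of all genes moved by -0.58 in that scaling, so these turns cannot be told apart from it. Esr1 also lost its call without the 3 libraries high in adipose markers.

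Genes with profiles most like those of Padi1, Padi2 and Padi4 were found by the root mean square distance between log2(FPKM + 1) values, each centred on its own mean, over the 7 libraries. Padi2 lay 0.198 from Padi1, against a median of 1.72 for all tested genes, and Padi4 lay 0.83 from Padi1. The closest genes outside the family were Fam213a at 0.238, Car12 at 0.278, Napsa at 0.296 and Unc5cl at 0.303 for Padi1. For Padi2 they were Unc5cl at 0.121, Car12 at 0.159, Lrrc26 at 0.240 and Dhrs9 at 0.255. Car12 encodes a carbonic anhydrase of the epithelial surface and Napsa an aspartic protease. Car12 averaged 7.77 ± 1.58 FPKM in controls (SD, n = 3) and 75.2 ± 24.5 FPKM in libraries labelled Foxl2-LSL (SD, n = 4).

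Padi4 had other nearest genes. They were Nectin4, an adhesion protein, at 0.142, Tmem40 at 0.161, Gadd45b, a stress response gene, at 0.173 and Rnf180, a ubiquitin ligase, at 0.191, against a median of 0.981 for all tested genes. Nectin4 averaged 6.55 ± 3.0 FPKM in controls (SD, n = 3) and 19.99 ± 4.90 FPKM in libraries labelled Foxl2-LSL (SD, n = 4). These distances are a description over 7 libraries in 2 groups, and most of each is set by the size of the difference between the groups.

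**Figure D5:**
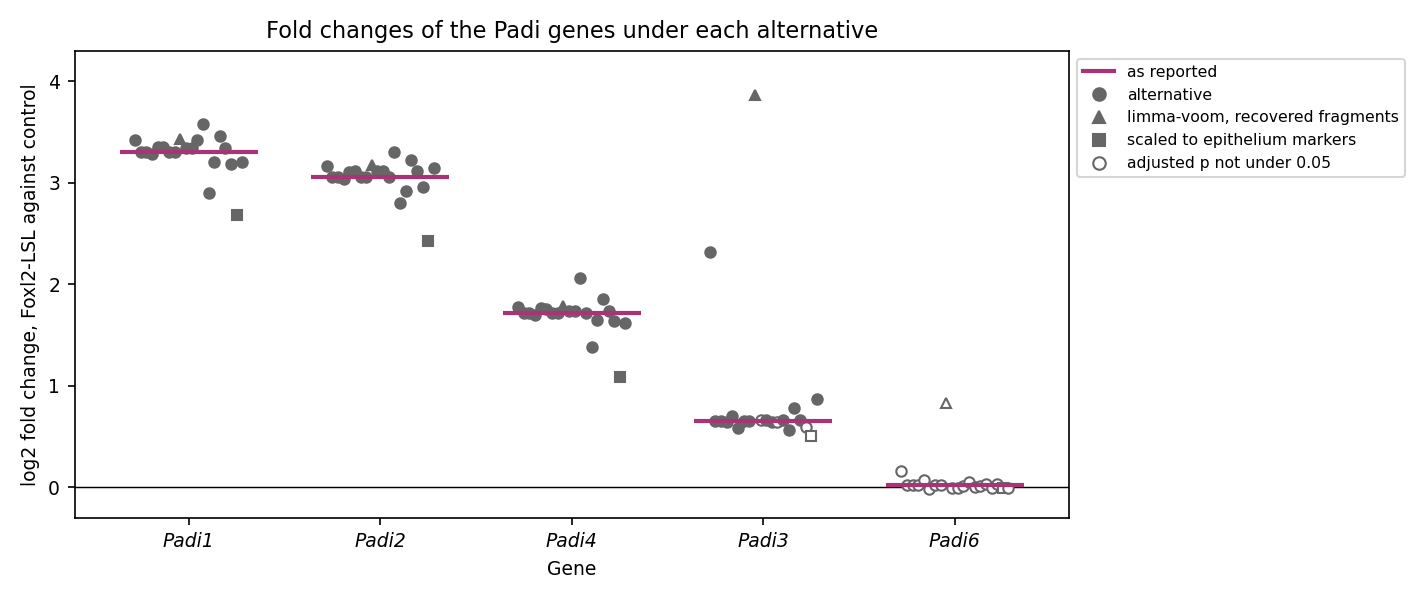
Log2 fold change of each Padi gene as reported (purple line) and under the 20 alternatives (points; open points did not pass an adjusted p of 0.05). Padi1, Padi2 and Padi4 pass in all 20 (lowest values 2.68, 2.43 and 1.09), Padi3 ranges from 0.50 to 3.86, and Padi6 stays unfilled. The fit without library 3 labelled Foxl2-LSL and the fit to libraries 1, 2 and 4 with no block are identical, and each is drawn.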

How the data were processed

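RNA was extracted with TRIzol from whole uterus, per the labels' protocols. One table was deposited by the authors, with FPKM values and, in another column, the gene length in bases. STAR 2.5.2b, featureCounts 1.5.0-p1, DESeq2 1.12.4 and mm10 are named in the submitters' processing notes. The annotation, the use of strand and the handling of reads shared between genes are not given in the sources used here.

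Values were taken as log2(FPKM + 1). Genes with a mean of at least 1 FPKM were tested, with the 5 Padi genes and Foxl2 kept whatever their level, which left 11628 listed genes untested. Groups followed the genotype in the labels and were compared with limma 3.58.1 (R 4.3.3) with an intensity trend and Benjamini-Hochberg adjustment. The script was tested on simulated data. Single values were also compared by exact permutation over 35 regroupings. FPKM times length fell on whole multiples (within 0.1) for 100% of the low values of genes up to 1500 bases. This gave the fragments per gene and the denominators, which were 63400000, 67200000 and 65600000 fragments for controls 1, 2 and 4 and 65500000, 47800000, 60500000 and 52500000 for libraries 1 to 4 labelled Foxl2-LSL. Libraries of one group differed by a chi-square per gene of 21.4 to 203, far beyond counting error.

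The Padi genes and the 17 gene lists were chosen with earlier results of these data known. Besides the Padi genes, Foxl2, Esr1 and Pgr, the rule named up to 4 genes past the threshold with the largest change per list, the nearest tested neighbour on each side and neighbours past the threshold, 4 genes of most similar profile, and defining markers near 0. Genes named outside it, with values that did not pass or as further members of a count (Prmt5, Krt5, Krt1, Krtdap, Ivl, Lor, Tchh, Muc1, Wnt7a, Clu, Igf1, Flg2, Fga, Fgb, Ass1, Otc and the noncoding genes), were chosen after their values were seen. So were Cxcr2, Ooep, Tle6, Krt25 and Krt85. Alternatives were other pseudocounts, filters, scalings and limma settings, limma-voom on recovered fragments, a replicate block and leaving out libraries. Transcripts and coordinates came from GENCODE M21 and promoters from RefSeq. No protein sequence was used here, and 1 listed gene is not reported here.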

Additional observations from a re-analysis of the deposited data

Results flagged for a closer look

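In 66 named genes, each group of 4 libraries labelled Foxl2-LSL was searched for a library set apart from the other 3 by most of the group's range (Dixon's test at the 95% level). Chance flags about 1 in 20 groups, and 3 were found, none of them in a Padi gene. Tmem40, one of the genes most like Padi4, was at 4.88 FPKM in library 2 labelled Foxl2-LSL and at 9.43 to 10.5 FPKM in the other 3. Nos3 was at 2.44 FPKM in the same library and at 2.99 to 3.08 FPKM in the others. Vegfa was at 23.9 FPKM in library 1 labelled Foxl2-LSL and at 30.6 to 31.0 FPKM in the others.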

How the results depend on the processing

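Results were recomputed under 20 alternatives, 18 planned and 2 added after seeing the data. Leaving out library 3 labelled Foxl2-LSL is the same fit as libraries 1, 2 and 4 with no block. That fit therefore enters 2 times in every count of alternatives. Padi1, Padi2 and Padi4 kept direction and call in all 20, with log2 fold changes of 2.68 to 3.58, 2.43 to 3.30 and 1.09 to 2.06 and adjusted p-values no higher than 0.0176, 0.0166 and 0.0278 (limma). Padi6 passed in none. Padi3 ranged from 0.57 to 0.78 over the 7 fits without 1 library. Its log2 fold change did not pass with a replicate block (0.66; adjusted p 0.0780) or after scaling to epithelial markers (0.50). Same-numbered libraries correlated at 0.228, -0.0306 and -0.112, the first being the highest of all pairs across the groups. So few values cannot settle whether same-numbered libraries were paired, and the labels do not say so. The replicate block, on libraries 1, 2 and 4 of each group, gave 3243 genes past the threshold, 1369 of them higher, and 4 neighbours of the cluster. The same 6 libraries without the block gave 3979, 1640 and 5, with an adjusted p of 0.0494 for Padi3, and all 7 libraries gave 5410, 2226 and 7. Scaling to epithelial markers left 301 genes higher and 4 neighbours past the threshold. It turned the log2 fold changes of Esr1 (-0.10), Nr3c1 (-0.060), Nrip1 (-0.28), Prmt2 (-0.30) and Crocc (-0.013), none of which then passed. The scaling moved the median of all genes by -0.58, so these turns cannot be told apart from that shift. What causes the other changes was not tested. Of 61 other named genes, 26 changed their call or direction in some alternative. Depth limits Padi6, and the group sizes limit the exact test.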
